A study of Mus musculus with 4 samples.

Results

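Neutrophils rich in Retnlg and Il1b were examined in 2 single-cell libraries of mouse bone and bone marrow, 1 from a young animal aged 6 months and 1 from an old animal aged 24 months. Their members were chosen by measured RNA among the 15670 barcodes with at least 200 genes and at most 20% mitochondrial UMIs (unique molecular identifiers, which count molecules). A member had at least 1% of its RNA UMIs from S100a8 plus S100a9, at least 1 UMI of Retnlg or Il1b, and under 5 UMIs per 1000 from the granule genes Ngp, Camp and Ltf together. This rule took 189 of 10063 kept barcodes in the young mouse and 344 of 5607 in the old mouse, 533 in all. Both animals carried INK-ATTAC, a transgene in which a fragment of the p16 promoter drives an inducible, FLAG-tagged caspase 8, and neither had been treated. Marrow freed with Liberase and bone freed with collagenase were lysed of red cells, depleted on magnetic columns of cells bearing CD5, B220, CD11b, Gr-1, 7-4 or Ter-119, and sorted as live CD45− cells after staining with a CD24 antibody that carries an oligonucleotide (CITE-seq). Neutrophils carry CD11b, Gr-1 and CD45, so the cells described here are ones that the depletion and the sort were meant to remove, and their share says nothing of the tissue. With 1 mouse per age there was no replicate check, and age, animal and library cannot be told apart. The rule used the RNA of these same barcodes, so RNA values are descriptions without a test, and every interval is an exact 95% interval for counting error only.

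Neutrophils are short-lived phagocytes that form in the marrow and leave it for the blood. Their granules fill in order during maturation, azurophil proteases first, then the specific granule proteins such as lactoferrin and Ngp, then gelatinase and the last membrane receptors. S100a8 and S100a9 form calprotectin, the most abundant cytosolic protein of these cells. Retention in the marrow is held by Cxcr4 and its stromal ligand Cxcl12, and release is driven by Csf3r, the receptor of granulocyte colony-stimulating factor, and by the chemokine receptor Cxcr2. Mature cells can make interleukin-1β (Il1b) and chemokines when they meet microbial or damage signals.

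Members made up 1.88% of kept young barcodes (interval 1.62 to 2.16) and 6.14% of kept old barcodes (5.52 to 6.80). Both Retnlg and Il1b had a UMI in 153 young and 237 old members. Retnlg alone was found in 11 and 82 members and Il1b alone in 25 and 25. A single UMI met the requirement for Retnlg or Il1b in 1 young and 32 old members. No UMI of Ngp, Camp or Ltf was present in 153 young and 231 old members. Median depth of members was 2645 RNA UMIs (young) and 3426 (old), with medians of 876 and 1041.5 genes, against 6443 and 10146 UMIs in all other kept barcodes. The libraries shared 25 barcodes, of which 1 was a young member and none was a member in both. Scrublet called 269 young and 57 old kept barcodes doublets, 6 and 12 of them members.

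The members were of more than 1 kind, and many later values are given for 1 kind only. RNA of other lineages was measured as the share of UMIs from marker lists for mesenchymal, B-lineage and erythroid cells. That share was at most 1% in 134 young members (1.33% of kept barcodes, interval 1.12 to 1.58) and 259 old members (4.62%, 4.08 to 5.20), called here members low in other-lineage RNA. It was over 1% in 55 young members (29.1% of members, 22.7 to 36.1) and 85 old members (24.7%, 20.2 to 29.6), called members rich in other-lineage RNA, and in 53 and 65 of these the mesenchymal list alone exceeded 1%. Every doublet called among members, 6 young and 12 old, was of the second kind.

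The rich members also differed between the libraries. In the young mouse they were deep, with a median of 7789 UMIs and 5.21% S100a8 plus S100a9, and Csf3r was found in 46 of 55 and Tyrobp, an adaptor of myeloid receptors, in 55 of 55. In the old mouse they were shallow, with a median of 1191 UMIs, 2.14% S100a8 plus S100a9, 2 UMIs of Retnlg and 0 of Il1b. Only 24 of those 85 old barcodes held Csf3r, 29 held Ptprc (CD45) and 37 held Tyrobp, whereas 79 held Cxcl12, a stromal chemokine, and 45 held Ngp. For most of these old barcodes the data therefore go against the neutrophil label, and all 85 are named here only by the rule. They were not all alike, as Il1b was found in 24 of them and their upper quartile of depth was 6614 UMIs. Among the members low in other-lineage RNA, Csf3r was found in 103 of 134 young and 240 of 259 old barcodes, Ptprc in 118 and 244, and Tyrobp in 134 and 253.

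**Figure D1:**
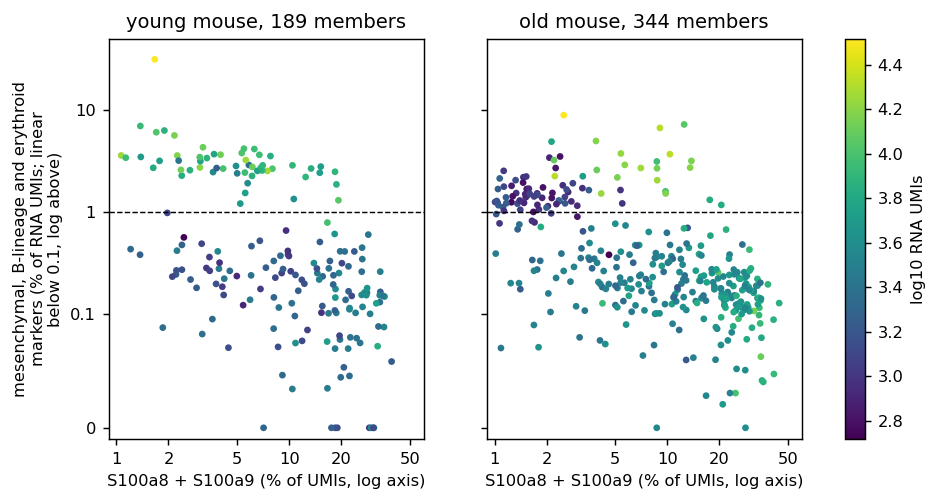
Each point is a member of the young (left) or old (right) mouse. The horizontal log axis gives S100a8 plus S100a9 as a percent of RNA UMIs, the vertical axis the percent of UMIs from mesenchymal, B-lineage and erythroid markers (linear below 0.1, log above), and the colour the log10 of RNA UMIs. The dashed line at 1% parts 134 young and 259 old members below it from 55 and 85 above it. The old members above the line are mostly dark (few UMIs) and near the 1% S100 limit, the young ones mostly bright.

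The S100 limit fell in a sparse stretch in the young mouse and in a dense one in the old mouse. Just inside, at 1 to 1.5%, stood 6 young members with a median of 6784 UMIs and 33 old members with a median of 1359 UMIs, and Csf3r was found in 6 and 5 of them. Just outside, at 0.5 to 1% with the other conditions met, stood 8 young and 67 old barcodes with medians of 4776.5 and 1436 UMIs, and Csf3r was found in 6 and 11. Few barcodes lay near the granule limit, 5 young and 8 old members at 4 to 5 UMIs per 1000 and 2 and 5 barcodes at 5 to 6.

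The remaining leukocyte markers held little of the RNA of the members low in other-lineage RNA. The complement genes C1qa, C1qb and C1qc, the macrophage genes Ms4a7 and Mrc1, and the monocyte receptors Ccr2 and Cx3cr1 had no UMI in them in either mouse. The whole list of 14 monocyte and macrophage genes came to 0.0173% (young) and 0.0208% (old) of their RNA, and Cd68 (28 and 129 UMIs) and Csf1r (14 and 54 UMIs) held most of it. Set against other kept barcodes over all members, 3 of 11 monocyte and macrophage genes were at least 2-fold higher in both mice. Of that list 1 was lower, and over all genes 7.17% were higher and 17.6% lower. Dendritic cell genes gave 1 of 4 higher, and T and NK genes 1 of 3. The B-lineage list came to 0.0131% and 0.0176% of RNA in members low in other-lineage RNA, with a UMI in 28 and 120 of them. All 7 mast cell, basophil and eosinophil genes were at 0. The azurophil proteases Mpo, Elane and Ctsg, made by promyelocytes, had 0 UMIs in all 533 members, which allows a share of up to 1.59% of young and 0.872% of old members with a UMI. Cdkn2a, the p16 gene whose promoter drives the transgene, was found in 0 of 189 young members, which allows up to 1.59%, and 1 of 344 old members, against 0.962% and 3.17% of other kept barcodes, which were deeper.

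The genes that set the members apart from the other kept barcodes were those of neutrophils. Of 17345 genes with enough UMIs, 7.17% were at least 2-fold higher in members of both mice and 17.6% at least 2-fold lower, and those shares are the background for each list below. A gene with no UMI in the members was never counted as higher. The 15 leading genes, by the smaller log2 ratio of the mice among genes at 50 or more CPM in members (UMIs scaled to a common total per group), held 1 rule gene, Il1b, and 14 others. They were the inhibitory or activating receptor genes Sirpb1c, Sirpb1b, Gm5150 and Cd300ld, the stefin A genes Stfa1 and Stfa2l1, the secreted inhibitor Wfdc17, the chemokine Ccl6, the platelet-activating factor receptor Ptafr, the inflammasome sensor Nlrp3, Acod1, which makes itaconate, the protease Asprv1, Csf3r, Il1b and the predicted gene Gm39321. Sirpb1c, Sirpb1b and Gm5150 are near-identical relatives, as are the stefins, so the split of reads within each family is uncertain. Some leading genes were found in a minority of members. Stfa1 had a UMI in 10 of 189 young and 42 of 344 old members, with 36.3% of its young UMIs in 1 barcode. Stfa2l1 had one in 70 and 138.

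The rule genes and the receptors are given as CPM in members low in other-lineage RNA, young then old. S100a8 stood at 72000 and 79309 CPM and S100a9 at 104660 and 105630, so the pair made up about the same part of the RNA in both mice. Retnlg (ENSMUSG00000022651), a resistin-like secreted protein, stood at 22916 and 20987 CPM against 80.7 and 221 in other kept barcodes. Il1b (ENSMUSG00000027398) stood at 9666 and 7853 CPM against 9.62 and 19.7. Acod1 stood at 2162 and 2656 CPM. Csf3r stood at 900 and 1003 CPM against 1.51 and 3.39, and Cxcr2 at 599 and 508. Ptprc, which encodes CD45, the antigen of the negative sort, stood at 1355 and 1456 CPM against 11.2 and 13.4. Itgam (CD11b), an antigen of the depletion, stood at 343 and 385 CPM. Ly6g, the other depletion antigen (part of Gr-1), was low at 102 and 201 CPM and had a UMI in 14.2% and 27.4% of barcodes, or 10.2% and 9.41% after thinning to equal depth, against 0.699% and 0.714% of mesenchymal barcodes.

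Shares of barcodes with a UMI depend on depth and on free RNA, so they were also taken after thinning to 1000 UMIs and set beside the same share in other kept barcodes with over 1% mesenchymal RNA (median 6388 and 10145 UMIs before thinning, against 2094 and 3586 in the members low in other-lineage RNA, of which 7 young and 4 old were too shallow). Before thinning, those members held a UMI of Il1b in 94.8% and 91.9%, of Retnlg in 82.8% and 90.7% and of Csf3r in 76.9% and 92.7%. Thinned, Il1b was found in 94.5% of young and 80.4% of old members low in other-lineage RNA against 0.699% and 0.815% of the mesenchymal barcodes. Retnlg was found in 80.3% and 82.4% against 2.10% and 2.45%, and Csf3r in 49.6% and 60% against 0.200% and 0.204%. S100a9 was found in all of the former and in 3.20% and 4.89% of the latter. The rule required S100a8 plus S100a9 and Retnlg or Il1b, so the members' shares of these genes were set by it. Csf3r was not in the rule, nor was Ptprc, found in 75.6% and 73.7% of those members and in 0.799% and 0.815% of mesenchymal barcodes.

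Lists of neutrophil genes, fixed with earlier results of these data known, were counted over all members, the rule genes left out, against the background of 7.17% higher. All 14 measured adhesion and chemoattractant receptor genes were higher, all 8 late granule and maturation genes, all 6 NADPH oxidase subunits, and 11 of 12 pattern recognition and Fc receptor genes. Among cytokines, chemokines and effectors 13 of 20 were higher and 4 lower, and among NF-κB and immediate-early genes 12 of 22 were higher. The IL-1 pathway gave 7 of 13 higher and the interferon response 12 of 20. Specific granule genes gave 6 of 9 higher and glycolysis 2 of 10. Of 9 proliferation genes 0 were higher and 7 lower, against the background of 17.6% lower. Mesenchymal RNA differed between the groups: its list made up 1.94% of young and 0.824% of old members' RNA, 0.184% and 0.163% in members low in other-lineage RNA, and 4.46% and 5.25% in other kept barcodes. Its part in the counts was not tested. Without the rich members, which also differed in depth and S100 share, the number of genes lower in members went from 3050 to 4954.

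The promoters of 3 genes are shown because their RNA parted along the S100 share described next. Retnlg and Mmp8, which encodes neutrophil collagenase, went with S100, whereas Il1b was slightly lower where S100 was high. Each line gives the 250 bases before the annotated start, 5′ to 3′ on the gene's strand, from the RefSeq annotation of build GRCm38.p6. All 3 genes were found in that table. Il1b lies at chr2:129371140-129371389 on the minus strand, Retnlg at chr16:48872358-48872607 and Mmp8 at chr9:7558179-7558428, both on the plus strand. Capitals mark matches to any of 5 motifs searched on both strands, which did not overlap each other here.
Il1b: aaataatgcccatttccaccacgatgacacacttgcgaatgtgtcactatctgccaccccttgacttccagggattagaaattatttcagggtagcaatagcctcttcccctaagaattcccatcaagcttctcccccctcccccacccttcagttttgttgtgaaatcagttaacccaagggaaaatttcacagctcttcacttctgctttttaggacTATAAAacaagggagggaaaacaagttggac
Retnlg: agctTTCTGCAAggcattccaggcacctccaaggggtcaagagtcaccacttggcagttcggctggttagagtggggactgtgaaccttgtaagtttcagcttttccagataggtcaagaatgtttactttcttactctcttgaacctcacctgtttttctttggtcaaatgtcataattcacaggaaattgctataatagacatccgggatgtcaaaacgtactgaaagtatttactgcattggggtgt
Mmp8: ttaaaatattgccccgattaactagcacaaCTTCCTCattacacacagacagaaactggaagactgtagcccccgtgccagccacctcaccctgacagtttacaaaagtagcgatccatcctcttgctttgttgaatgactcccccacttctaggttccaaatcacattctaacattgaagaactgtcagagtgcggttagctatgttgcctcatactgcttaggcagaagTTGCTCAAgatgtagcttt
The C/EBP letters TTGCNNAA occurred once in Retnlg, 246 bases before the start, and once in Mmp8, 19 bases before it, and 9.56% of 32851 promoter windows of this length hold them. The PU.1 letters GAGGAAG occurred once in Mmp8, 220 bases before the start (10.6% of windows). The TATA box letters TATAAA occurred once in Il1b, 31 bases before the start (12.4% of windows). The NF-κB letters GGGANNTCC (3.59% of windows) and the AP-1 letters TGANTCA (6.75%) were in none of the 3 windows. A match is a run of letters and not a shown binding site.

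Within the members low in other-lineage RNA, the share of S100a8 plus S100a9 ran from 1% to over 20%, and other neutrophil genes changed along it. Members were set in 4 ranges, 1 to 5%, 5 to 10%, 10 to 20% and over 20%, with 29, 22, 41 and 42 young and 51, 52, 61 and 95 old barcodes. Levels are UMIs per 1000 UMIs other than S100a8 and S100a9, so that the S100 genes themselves did not dilute the rest. Median depth also went up along the ranges, from 1510 to 2648 UMIs among young barcodes and from 2846 to 4936 among old ones, and its part was not tested. Over 3125 genes, 5.63% were higher in the top than in the bottom range with intervals above 0 in both mice, and 6.82% were lower with intervals below 0 in both. The S100 share is a rule gene measure, so this is a description, and barcodes of 1 library are not replicates.

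Granule genes were higher where S100 was high. Retnlg stood at 1.502, 6.44, 18.3 and 60.9 UMIs per 1000 across the ranges of the young mouse and at 1.86, 4.13, 16.9 and 49.2 in the old mouse, log2 differences of 5.34 (5.01 to 5.70) and 4.72 (4.55 to 4.91) between the ends. Mmp8 went from 0.104 to 1.72 and from 0.0572 to 1.76, and Lcn2, the iron-trapping protein of specific granules, from 0.688 to 3.33 and from 0.243 to 5.83. Mmp9, the gelatinase, went from 1.13 to 2.55 and from 0.630 to 1.91. Of the specific granule list 9 of 10 genes were higher and 0 lower, and of the late granule list 6 of 9 and 0, with the rule genes Ngp, Camp and Retnlg among them. Ngp, which the rule held low, was at 0 in the bottom and 1.27 in the top range of the young mouse and at 0.122 and 0.9496 in the old mouse.

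Inducible chemokines ran the other way. Ccl4, an inflammatory chemokine, stood at 11.9, 7.49, 2.85 and 1.79 (young) and at 8.76, 4.31, 3.75 and 0.9496 (old), log2 differences of −2.73 (−3.00 to −2.47) and −3.21 (−3.38 to −3.03). Its neighbour Ccl3 differed by −2.66 and −2.85, the chemerin-binding receptor Ccrl2 by −2.68 and −2.91, and the macrophage growth factor Csf1 by −3.20 and −3.62. Il1rn, the IL-1 receptor antagonist, differed by −2.003 and −1.72, and Nfkbia, the NF-κB inhibitor that NF-κB itself induces, by −1.31 and −1.19. Of the NF-κB and immediate-early list 9 of 20 genes were lower and 2 (Fos and Ier2) higher, and of the cytokine list 5 of 15 were lower and 3 (Ccl6, Osm and Arg2) higher.

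Il1b did not follow either group far. It stood at 11.03, 13.7, 13.4 and 9.58 UMIs per 1000 (young) and at 9.99, 13.2, 9.89 and 7.78 (old), log2 differences of −0.20 (−0.36 to −0.04) and −0.36 (−0.45 to −0.27). Of the IL-1 pathway list 3 of 11 genes (Il1b, Il1rn and Il1r2) were lower at high S100 in both mice and 0 higher. Cxcl2, a Cxcr2 ligand, differed by −0.38 and −0.70. Across single barcodes the rank correlation with the S100 share was 0.807 (n = 134) and 0.797 (n = 259) for Retnlg and −0.11 and 0.03 for Il1b, while Retnlg and Il1b had −0.19 and 0.01 with each other. These barcodes share a library and its depth, and the values are descriptions. The rule asked for Retnlg or Il1b, so a barcode without Retnlg entered only with Il1b, as 23 young and 24 old ones did. That choice bears on the level of Il1b at low S100 and on its correlation with Retnlg.

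Receptors of migration split as well. Cxcr2 was higher at high S100 by 1.03 and 0.84 on the log2 scale, as were Itgam (1.08 and 0.84) and the formyl peptide receptor Fpr2 (1.66 and 1.44). Cxcr4, the marrow retention receptor, was lower there (−1.21 and −1.36), and so was Csf3r (−0.71 and −0.45). Of the glycolysis list 5 of 10 genes (Aldoa, Gapdh, Pgk1, Eno1 and Pkm) were higher and 0 lower, Gapdh by 1.36 and 1.64. Of 8 measured mesenchymal and 5 erythroid markers, 0 were higher or lower along the ranges in both mice. The 1% limit on such RNA had held these markers low beforehand, so that count says little about other-lineage RNA.

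**Figure D2:**
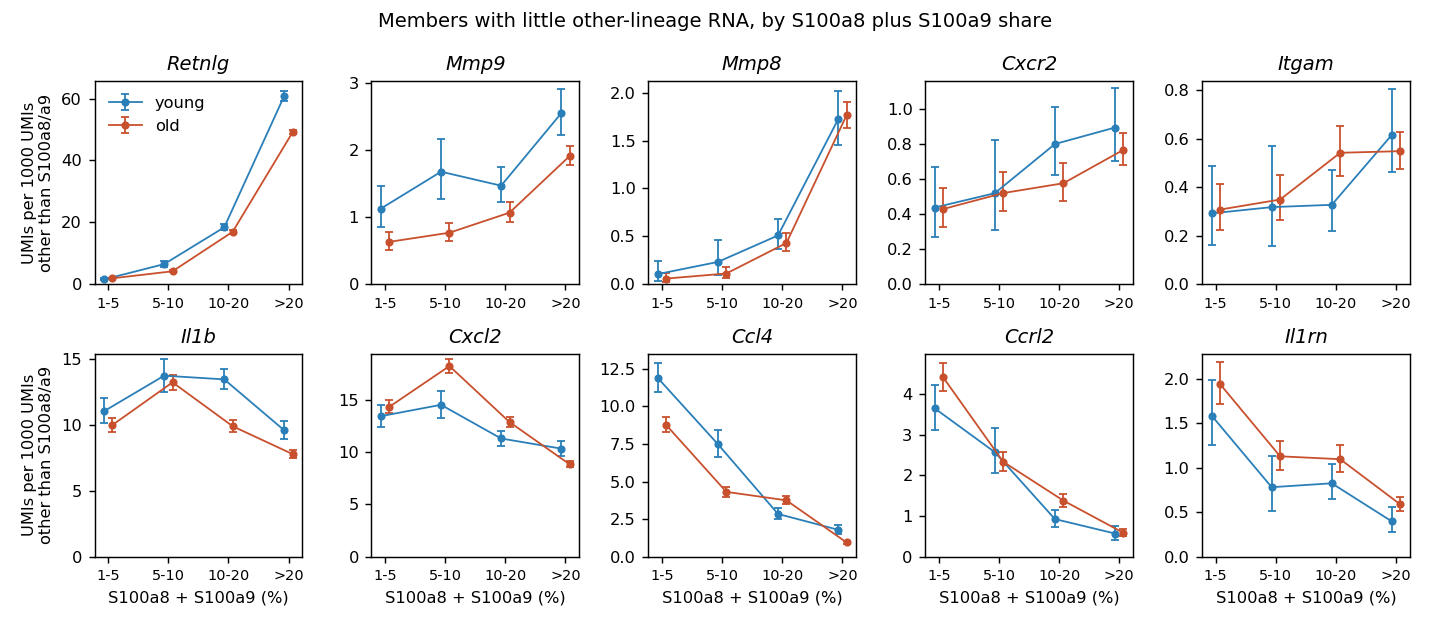
Members low in other-lineage RNA in 4 ranges of S100a8 plus S100a9 (horizontal axis, percent of UMIs), with the level of 10 genes in UMIs per 1000 UMIs other than these 2 (vertical axes, from 0). Blue is the young and orange the old mouse, points are summed UMIs and bars 95% counting intervals. Retnlg climbs from 1.502 to 60.9 in the young mouse and Ccl4 drops from 11.9 to 1.79, while Il1b stays between 7.78 and 13.7 in both.

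The granulocytes that the rule left out as rich in Ngp, Camp and Ltf, 47 young and 57 old barcodes, were the nearest cells for comparison. They had medians of 24.2% and 30.8% S100a8 plus S100a9 and of 8029 and 10581 UMIs, more than the members on both counts. The rule parted these groups by granule RNA, so the values are descriptions. The limit of 1% other-lineage RNA was set for the members only, and the granulocytes had upper quartiles of 1.89% and 1.65% of such RNA. Cxcl12, a stromal gene, stood at 8943 and 5538 CPM in the granulocytes against 519 and 252 in members low in other-lineage RNA. The part of this RNA in the differences was not tested. Over 6562 genes, 10.2% were at least 2-fold higher in members low in other-lineage RNA in both mice and 21.3% at least 2-fold lower. The median log2 difference of all these genes was −0.40 and −0.27 with counts of 0 set to 3 UMIs, and −0.34 and −0.22 over the 6157 genes without a 0, and gene values are to be read against it.

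Specific granule genes separated the groups, partly by construction. Ngp stood at 359 and 393 CPM in the members against 21265 and 25103 in the granulocytes, and both Camp, an antimicrobial cathelicidin, and Ltf, lactoferrin, were likewise high in the latter (22962 and 18796, 6338 and 5834 CPM). Of the 9 other genes of this list 0 were higher in members and 8 lower. Lcn2, not in the rule, stood at 1723 and 2542 CPM in members against 9012 and 12634. Cebpe, the transcription factor needed for specific granules, stood at 9.61 and 10.2 CPM against 129 and 126. Late granule genes did not part the groups in this way, with 3 of 8 higher and 2 lower beside Retnlg. Retnlg, a rule gene, differed on the log2 scale by 0.46 (young) and −0.04 (old), and Mmp9 by 0.14 and −0.43.

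Many signalling and inflammatory genes were higher in the members. Il1b stood at 9666 and 7853 CPM against 863 and 917, log2 differences of 3.49 and 3.10, and Cxcl2 differed by 3.98 and 3.58. Ccl4 differed by 5.96 and 5.25, Ccl3 by 6.47 and 5.08, Nlrp3 by 3.55 and 3.24, and Il1r2, the decoy IL-1 receptor, by 3.23 and 2.11. Csf3r differed by 3.28 and 3.02, Cxcr4 by 2.40 and 3.66 and Cxcr2 by 1.92 and 1.43. By list, 9 of 14 adhesion and chemoattractant receptor genes were higher and 1 lower, 11 of 18 cytokine genes higher and 0 lower, 14 of 22 NF-κB and immediate-early genes higher and 0 lower, and 9 of 19 interferon response genes higher and 1 lower. Itgam went the other way by −0.73 and −0.42 and Ly6g by −2.69 and −1.85. The NADPH oxidase genes gave 0 of 6 higher and 1 lower. IL-1 pathway genes other than Il1b gave 5 of 12 higher and 2 lower, and transcription factors 4 of 11 higher and 2 lower.

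**Figure D3:**
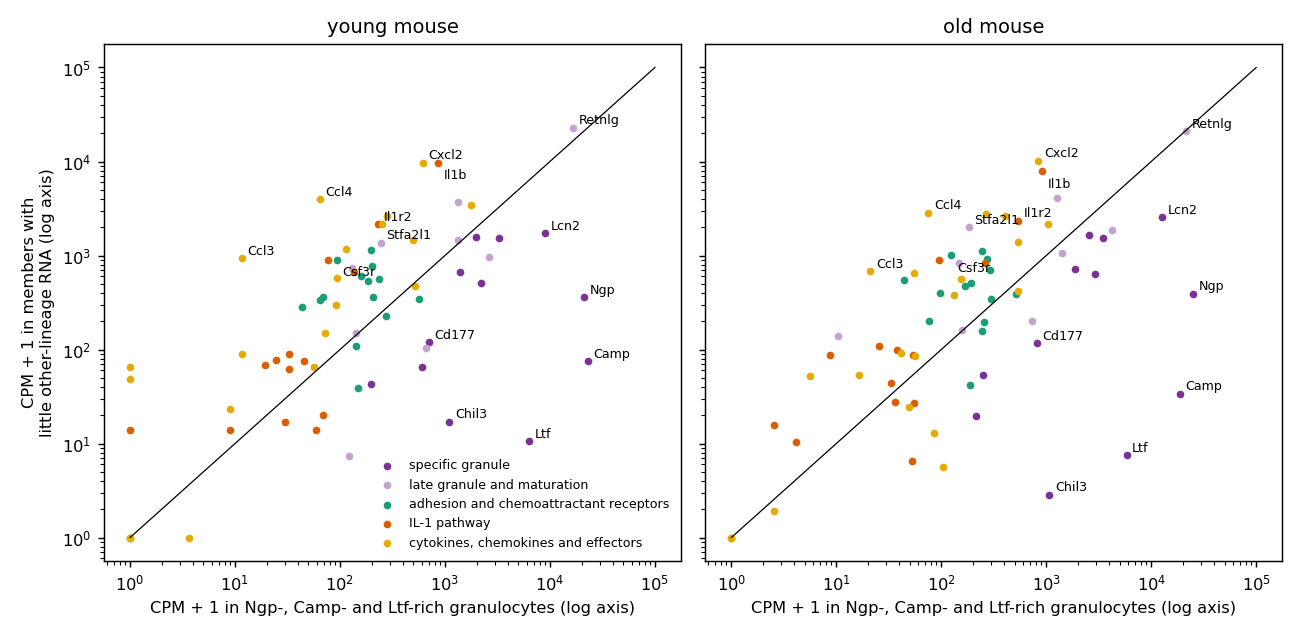
CPM plus 1 of listed genes in granulocytes rich in Ngp, Camp and Ltf (horizontal log axis) and in members low in other-lineage RNA (vertical log axis), young mouse left and old mouse right, coloured by list, with the line of equality. Specific granule genes such as Ngp (359 against 21265 CPM in the young mouse) lie below the line, Il1b, Ccl4 and Cxcl2 above it and Retnlg on or near it.

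Between the ages, the result depended on which members were summed. Over all members, 3.65% of 7703 genes were at least 2-fold higher in the old mouse and 21.6% at least 2-fold lower, and the median gene was lower by −0.35 on the log2 scale. Over the members low in other-lineage RNA, 5.61% of 4278 genes were higher and 4.09% lower, with a median of −0.02. Over all members, stromal genes such as Cxcl12 (log2 −1.97) were among the lower ones, and the mesenchymal list was at 1.94% of the young and 0.824% of the old members' RNA. Values below are from the members low in other-lineage RNA unless stated.

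Most neutrophil genes stood within 2-fold of each other in the 2 mice. So did most of all 4278 genes, with 5.61% higher and 4.09% lower in the old mouse, and the list counts are to be read beside those shares. S100a8 differed by 0.14 (0.12 to 0.16), Retnlg by −0.13 (−0.17 to −0.09), Cxcl2 by 0.06, Csf3r by 0.16 (−0.03 to 0.35) and Acod1 by 0.30 (0.18 to 0.42). Il1b was lower in the old mouse by −0.30 (−0.36 to −0.24), yet over all members it was higher by 0.29 (0.24 to 0.34), so its direction turned with the choice of members, as did those of Retnlg, Ccl3 and Ccl4. Among mesenchymal barcodes Il1b was lower in the old mouse too, by −0.39 (−0.62 to −0.17). Acod1 was higher there by 0.56, while Csf3r differed by −0.25. None of 14 adhesion and chemoattractant receptor genes, 12 pattern recognition and Fc receptor genes, 12 IL-1 pathway genes, 10 glycolysis genes or 6 NADPH oxidase genes passed 2-fold in either direction. Of 17 cytokine genes 0 were higher and 1, Cxcl3, lower, and of 22 NF-κB and immediate-early genes 0 were higher and 1, Icam1, lower. Of 10 specific granule genes 0 were higher and 2 lower, the rule gene Camp (−1.18, −1.98 to −0.35, with 69.6% of its young UMIs in 1 barcode) and the integrin subunit Itgb2l (13 and 20 UMIs, −1.16), and of 9 late granule genes 1, Stfa2, was higher.

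Smaller differences had counting intervals clear of 0. Fos, an immediate-early transcription factor, stood at 3136 and 1764 CPM (log2 −0.83, −0.94 to −0.72) and Ptgs2, the inducible cyclooxygenase, at 1166 and 658 (−0.82, −1.01 to −0.64). Thbs1, which encodes thrombospondin, differed by −0.70, Dusp1, a phosphatase of the stress kinases, by −0.58, and Mmp9 by −0.48. G0s2, an inhibitor of lipolysis, stood at 4795 and 2796 CPM (−0.78), but among mesenchymal barcodes it was higher in the old mouse by 0.51. Wfdc21, a late granule gene, stood at 954 and 1861 CPM (0.96, 0.79 to 1.14), Ly6g at 102 and 201 (0.97, 0.43 to 1.56), Lcn2 at 1723 and 2542 (0.56, 0.43 to 0.70) and Cxcr4 at 362 and 549 (0.60, 0.31 to 0.91). Wfdc21 and Lcn2 were higher in the old mouse among mesenchymal barcodes too, by 1.09 and 1.16.

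**Figure D4:**
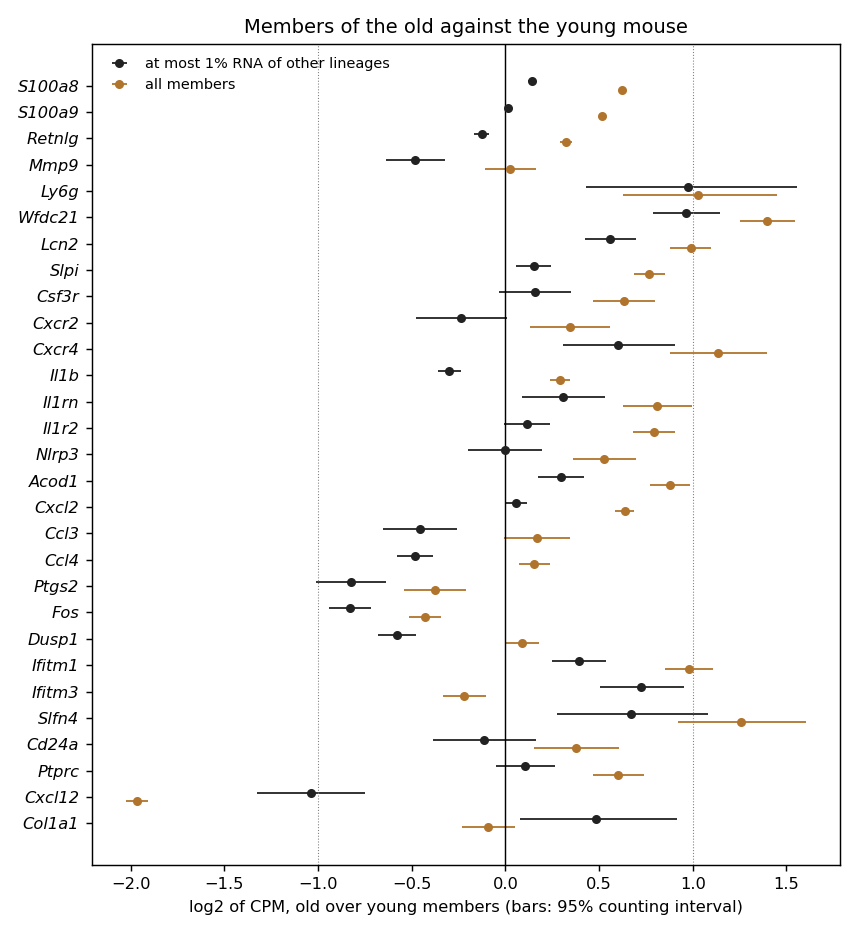
Log2 of the CPM ratio, old over young mouse (horizontal axis), for 29 genes, with 95% counting intervals. Black points are members low in other-lineage RNA and brown points all members, and dotted lines mark 2-fold. Il1b lies at −0.30 in black and 0.29 in brown, and Cxcl12 at −1.04 and −1.97.

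Of 18 interferon response genes 3 were over 2-fold higher in the old mouse and 1 lower. The higher ones were Gbp2, a GTPase (2 and 35 UMIs), Irf7, a transcription factor of interferon genes (8 and 58 UMIs), and Rtp4 (13 and 92 UMIs, log2 1.04, 0.20 to 2.00), and the lower one was Ifit3b (10 and 14 UMIs). More abundant members of the list were higher by less, Ifitm1 by 0.39 (0.25 to 0.54), Slfn4 by 0.67 (0.27 to 1.08) and Ifitm3 by 0.72 (0.50 to 0.95), though Ifitm3 differed by −0.22 over all members. Rsad2 differed by −0.98, with 64.7% of its young UMIs in 1 barcode. The list's median was 0.49 against −0.02 over all genes.

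The 12 genes with the highest lower bound for the old mouse were found in 11 (Cstdc5) to 110 (Igkc) old barcodes. Cstdc5 (2 young and 300 old UMIs) came from 11 old barcodes, 45.3% of it from 1, and Stfa2 (2 and 148 UMIs) from 12. Stfa1 differed by 1.77 (1.40 to 2.16) and Cstdc4 by 1.47 (1.28 to 1.66), the latter found in 20 young and 83 old barcodes. Among mesenchymal barcodes Stfa1 and Cstdc5 were higher in the old mouse too, by 2.03 and 2.10, while Cstdc4 was lower, at −1.04. These stefin and cystatin-like genes are close copies of each other, so the assignment of their reads is uncertain. Mki67, a proliferation antigen, had 7 young and 143 old UMIs in 6 of 134 and 34 of 259 barcodes (2.57, 1.49 to 3.91), 13.99% of the old UMIs in 1, and Top2a, a replication enzyme, had 2 and 19 UMIs. Igkc, an immunoglobulin light chain of B-lineage cells, was found in 1 young and 110 old barcodes and was also higher in old mesenchymal barcodes, by 3.63. Tagln2, an actin-binding protein, was found in 5 and 62 barcodes (2.64, 1.48 to 4.12), Fosl1 in 4 and 34, Amn1 in 3 and 39 and Armc3 in 1 and 29. Zbp1, a sensor of nucleic acids (0 and 34 UMIs), and Nop56, a nucleolar protein (0 and 26), had no young UMI, and against a floor of 3 UMIs over the group they were at least 1.72 and 1.33 higher on the log2 scale.

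The 12 genes with the lowest upper bound included Grap, a signalling adaptor found in 15 young and 1 old barcode (−5.10, −8.25 to −3.06), and the membrane-binding annexin Anxa6 (−2.09, −2.99 to −1.20). Gm8797 differed by −3.31 and by −4.17 in mesenchymal barcodes as well. Cxcl12 (−1.04), Igfbp4 (−1.66) and Serpine2 (−1.20) are stromal genes, and 39.5%, 25.7% and 54.0% of their young UMIs came from 1 barcode each. Icam1, an adhesion molecule induced by NF-κB, stood at 167 and 67.0 CPM (−1.31, −1.85 to −0.77), with 32.7% of the young UMIs in 1 barcode. AY036118 (44.1% of the young UMIs in 1 barcode), Csgalnact2, Krt80, Fos and G0s2 completed the list. Cdkn1a, the p21 gene, had 40 young and 65 old UMIs and differed by −1.08 (−1.67 to −0.48).

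CD24 protein was the measure the rule did not use. The antibody had a median of 76 UMIs in young members and 91 in old members, against 93 and 95 in all other kept barcodes and 85 and 88 in the mesenchymal ones. The threshold, set per library by Otsu's method on all kept barcodes, lay at 313 and 397 antibody UMIs. It was passed by 14 of 189 young members (7.41%, 4.11 to 12.1) and 30 of 344 old members (8.72%, 5.96 to 12.2), against 15.8% and 13.9% of other kept barcodes and 8.62% and 5.30% of the mesenchymal ones. Per 1000 RNA UMIs the order turned, with medians of 27.7 and 32.3 in members against 15.4 and 10.7 in other kept barcodes. Members had fewer RNA UMIs, with medians of 2645 and 3426 against 6443 and 10146, and the part of depth was not tested. With 2 mice no test could reach a p of 0.05, and none was made.

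Among members low in other-lineage RNA, 6 young (4.48%, 1.66 to 9.49) and 26 old (10.0%, 6.66 to 14.4) were above the threshold, and their medians were 68.5 and 87. Among the rich ones 8 of 55 young and 4 of 85 old were above it, and among the granulocytes rich in Ngp, Camp and Ltf 5 of 47 and 5 of 57. The highest member held 3608 antibody UMIs among the young and 9135 among the old. Erythroid and B-lineage cells also carry CD24, and an erythroid UMI was present in 2 of 6 young and 20 of 26 old low members above the threshold, against 30 of 128 and 137 of 233 below it. A B-lineage UMI was present in 3 and 15 of them, against 25 and 105 below it. Their part in the antibody signal was not tested.

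Cd24a RNA (ENSMUSG00000047139) was higher per RNA UMI in the members than in other barcodes. The antibody was higher only when scaled in that way. Its unscaled medians in members low in other-lineage RNA were 68.5 and 87, against 93 and 95 in other kept barcodes. These members were shallower, and the part of depth in the scaled order was not tested. Cd24a stood at 471 and 435 CPM in members low in other-lineage RNA against 114 and 165 in other kept barcodes and 404 and 392 in the granulocytes, and the antibody had medians of 32.2 and 23.98 per 1000 RNA UMIs in those members. Cd24a was found in 56.0% and 66.4% of those members, and after thinning to 1000 UMIs in 34.6% and 32.5% of them and in 1.5% and 1.94% of mesenchymal barcodes. A Cd24a UMI was present in 4 of 6 young and 21 of 26 old members above the antibody threshold and in 71 of 128 and 151 of 233 below it. Over single barcodes the rank correlation of antibody and Cd24a UMIs was 0.098 (n = 134) and 0.164 (n = 259), in counts that share a library and its depth.

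**Figure D5:**
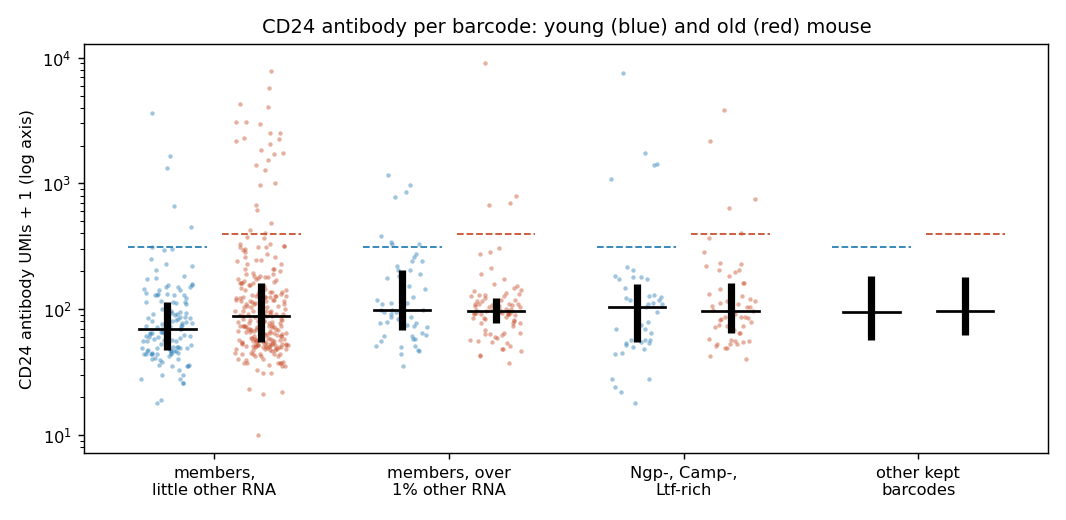
CD24 antibody UMIs plus 1 per barcode (vertical log axis) in 2 kinds of member, in granulocytes rich in Ngp, Camp and Ltf, and in other kept barcodes, of which only the median and quartiles are drawn. Blue is the young and red the old mouse, black boxes span the quartiles with a line at the median, and dashed lines are the thresholds of 313 and 397. Medians of members low in other-lineage RNA lie at 68.5 and 87, and 6 and 26 of them lie above the dashed lines.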

How the data were processed

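CITE-seq counts of 1 young and 1 old mouse were used as deposited by the authors: raw UMI counts for 32285 genes and 1 CD24 antibody, written by Cell Ranger 6.1.1 per the file headers, with mm10, R 4.0.3 and Seurat 4.0 in the submitters' processing notes. UMIs count molecules, and free RNA or antibody in a droplet is counted with the cell. The study's limits of 200 genes and 20% mitochondrial UMIs were applied. The members, lists and tests were chosen with earlier results of these data known.

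UMIs were summed per mouse and group and scaled to CPM. Genes needed 20 UMIs over the groups compared, and 2-fold or more counted as higher or lower. Named genes were those of 26 lists (262 of 265 genes found), the 15 leading genes against other barcodes among those at 50 CPM or more, and, for age, the 12 with the highest lower and the 12 with the lowest upper bound among genes found in at least 10 members. BC100530, Clec7a and H2az1 were not analysed here, and the first of 2 Aldoa features was used. Intervals are exact at 95% (Clopper-Pearson, Poisson, conditional binomial), and a count of 0 allows 3. Barcodes were thinned once to 1000 UMIs (seed 7), which left out 7 young and 38 old members. Doublets were called, not removed, with Scrublet through scanpy 1.11.5 (seed 1). The Otsu threshold of log(1 + antibody count) was found with scikit-image 0.26.0. Python 3.11.15, NumPy 2.4.6 and SciPy 1.17.1 were used. Only the interval for CPM ratios was tried on simulated data, drawn as independent counts. Clustering of UMIs within barcodes was not simulated. No test of age was possible with 1 mouse each. Depth was 81076421 young and 66702846 old RNA UMIs in kept barcodes, 797369 and 1490416 of them in members. Alternatives changed the limits of the rule, the filters, the scaling, the weights, the depth and the antibody threshold.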

Additional observations from a re-analysis of the deposited data

Results flagged for a closer look

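Signal lay in barcodes that the mitochondrial limit had removed. Of these, 7 young and 9 old barcodes met the RNA rule of the members, all of them with over 20% mitochondrial UMIs, and they had medians of 2084 and 4156 UMIs and of 5.71% and 5.14% S100a8 plus S100a9. They entered no comparison.

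For 7 genes the log2 ratio of members over other kept barcodes had opposite signs in the mice, a difference that was not tested. Cd74, the invariant chain of antigen presentation, stood at 3.28 (young) and -1.24 (old), with 56.7% of the young members' UMIs in 1 barcode. The hemoglobin genes gave 1.60 and -1.84 for Hba-a1, 1.79 and -2.04 for Hba-a2, 1.98 and -2.03 for Hbb-bs, and 1.60 and -2.08 for Hbb-bt, and 1 barcode held from 96.6% (Hba-a2) to 98.4% (Hbb-bs) of the young members' UMIs. The stromal genes Lepr, which encodes the leptin receptor, and Cxcl12 gave 0.92 and -1.45, and 0.51 and -1.41. Among young members low in other-lineage RNA, Lepr stood at -3.77, Cxcl12 at -3.65, Hbb-bs at -4.76 and Cd74 at 2.98.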

How the results depend on the processing

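No paired analysis was possible because each age had 1 mouse and no result comes from a test. Over the member counts and shares, antibody and Cd24a shares and gene counts, 119 values under other settings stayed close to those reported and 31 moved. Of the age differences of 16 single genes, 89 values stayed within the counting interval and 167 moved out of it. The old share of 6.14% became 5.10% with S100a8 plus S100a9 at 2%, 4.03% (226 barcodes) at 5%, 5.39% with granule genes under 2 per 1000, and 4.69% with members over 1% other-lineage RNA taken out of both counts, and the young share of 1.88% became 1.32% at 5% S100 and 1.34% without those members. Leaving them out also took genes lower in members from 3050 to 4954, genes lower against granulocytes from 204 to 1396, and genes lower in the old mouse from 1661 to 175. That last count was 1078 at 5% S100, 728 at 50 UMIs per gene, 747 with equal weights and 229 after thinning, and the count of higher genes, 281, was 125, 593 and 118 under the last 3. In settings chosen after seeing the data, without those members the lower count was 160 with median-ratio scaling, 174 with equal weights, 82 after thinning (109 higher) and 141 at 5% S100. Members above the antibody threshold went from 8.72% to 5.11% in the old mouse at 10% mitochondrial UMIs, from 7.41% to 3.70% in the young mouse at the 90th percentile, and to 24.3% and 48.0% per 1000 RNA UMIs. Members with a Cd24a UMI, 56.1% and 58.1%, became 27.5% and 29.1% after thinning, and in the old mouse 64.7% at 2% S100, 67.7% at 5% and 66.4% without those members. No single gene was reversed at 2-fold, yet over all settings the age difference ranged from -0.32 to 0.44 for Il1b, from -0.34 to 0.53 for Retnlg and from -0.55 to 0.30 for Ccl4. The cause was not tested. Depth limits genes under 20 UMIs and the old members near the S100 limit.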
